A study of Mus musculus with 12 samples.

Results

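The comparison described here asks which transcripts of drug-treated E0771 cells, a mouse mammary carcinoma line, depended on the type I interferon (IFN) receptor. Cells were exposed to 4HC, a chemically activated form of cyclophosphamide, with or without a monoclonal antibody to the receptor subunit IFNAR1. Of the 24197 genes in the deposited table, 11083 had a mean of at least 0.5 FPKM (sequenced fragments scaled to transcript length and library size) in either of these groups and form the set analysed. For each of them the antibody effect was log2((4HC with antibody + 0.1)/(4HC + 0.1)), so that a negative value is a lower level in the presence of the antibody, and -1 is a 2-fold lower level. The pseudocount of 0.1 FPKM understates differences of weakly expressed genes.

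The series holds 4 groups of 3 libraries each, all from cultured E0771 cells. The 4HC group received 4.2 μM 4HC for 4 h and was collected 68 h after the wash, at 72 h. The 4HC + anti-IFNAR1 group received the same drug schedule with 10 μg/mL antibody, which was present during the drug exposure and again in the fresh medium until collection. Untreated control cells were collected at 72 h, and the IFNβ group received 27.8 U/mL recombinant mouse IFNβ for 4 h. The IFNβ cells were collected 2 h after the wash per the sample characteristics and the study's methods, and the header of the table gives 6 h for them, whereas the general protocol text of the labels gives 68 h. No group received a control antibody, so block of the receptor and other consequences of adding an antibody cannot be told apart, and no group received antibody without 4HC. The table holds 1 mean per group and no value per library. Every difference is therefore between 2 means without a replicate error, no test was run on them, and the table does not give the depth of a library. In what follows a gene is called lower or higher only by the 2-fold rule.

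Type I interferons signal through IFNAR1 and IFNAR2 to the kinases JAK1 and TYK2, which phosphorylate STAT proteins. STAT2 and IRF9 are parts of the complex ISGF3, which binds the interferon-stimulated response element (ISRE) in the promoters of IFN-stimulated genes (ISGs). Many ISGs encode antiviral effectors, nucleic acid sensors or parts of the antigen presentation pathway. Some of them can also be switched on without the receptor, by IRF3, IRF1 or NF-κB downstream of nucleic acid sensors.

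At least 2-fold lower levels with the antibody were found for 169 of the 11083 genes (1.52%), and at least 2-fold higher levels for 51 (0.460%). The effects were centred at 0, with a median of -0.01, and 10443 genes (94.2%) lay within 0.5 of 0. The tails were unlike in kind. Of the 169 lower genes, 110 (65.1%) belonged to 15 lists of interferon pathway genes, which were chosen with earlier results of these data known. A further 29 (17.2%) were genes of small non-coding RNAs (microRNAs, small nucleolar and Cajal body RNAs, and the RNA components of RNase P and RNase MRP), and 30 were other genes. Among all 11083 genes, 176 (1.59%) were in these lists and 417 (3.76%) were small non-coding RNA genes. Of the 51 higher genes, none was in an interferon list, 49 were genes of small non-coding RNAs and 2 were others, Cox7a1 and the predicted gene Gm10012. At 10 FPKM or more in either group, 67 of 3987 genes were at least 2-fold lower and 1 was at least 2-fold higher, the microRNA gene Mir682 (1.16).

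**Figure D1:**
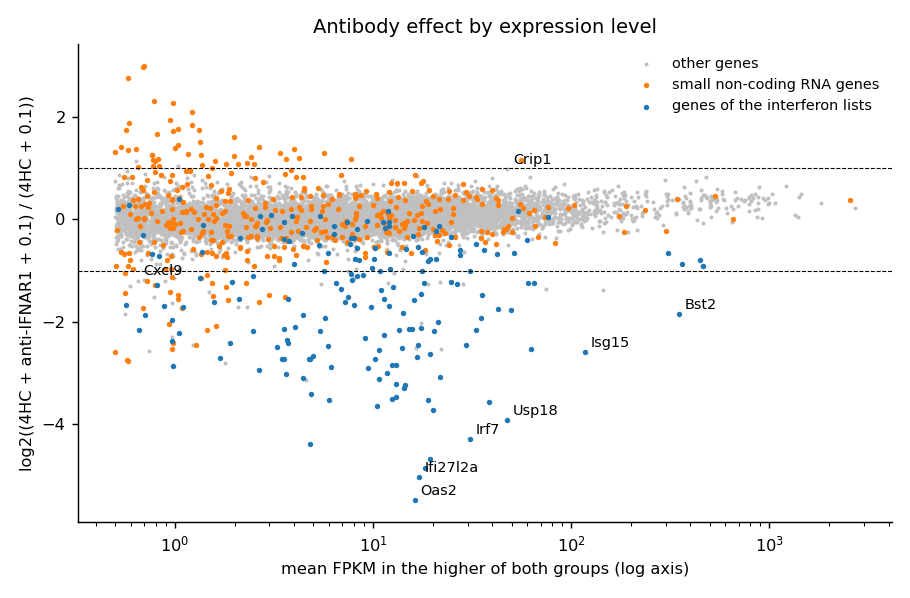
Each point is 1 of the 11083 genes, with the mean FPKM of the higher of both groups on a log axis against the antibody effect (log2 scale); dashed lines mark a 2-fold difference. Genes of the interferon lists (blue) extend down to -5.49 over a wide range of levels, whereas the upper tail consists mainly of small non-coding RNA genes (orange) of low level.

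The genes with the lowest effects encode antiviral effectors and regulators of the interferon response. Oas2, an oligoadenylate synthetase activated by double-stranded RNA (mm9, chr5:121180341-121199857), had the lowest effect of all, -5.49. Its mean was 0.252 FPKM in untreated cells, 16.2 FPKM under 4HC, 0.263 FPKM when the antibody was present, and 8.68 FPKM under IFNβ. Ifi27l2a, a small interferon-induced protein gene, followed at -5.04, with 17.1 FPKM under 4HC and 0.424 FPKM with the antibody. The next were Oas3 at -4.86, Ifi44 at -4.69, Oas1g at -4.39 and Irf7, the regulator that amplifies type I IFN production, at -4.29. These 6 genes retained between 1.62% (Oas2) and 4.80% (Irf7) of their 4HC level. The list of 20 lowest effects ended with Zbp1, a sensor of Z-form nucleic acids, at -3.13 and Trim30d at -3.10, which retained 10.6% and 9.67%. Between them ranked Usp18, Oas1a, Irgm2, Oasl2, Rtp4, Oas1b, Trim30a, Xaf1, Phf11d, Gbp3, Igtp and Dhx58, from -3.93 to -3.23.

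Promoter sequence was not used in choosing these genes, so the windows from 250 bases before to 50 bases after the annotated start were searched for the core of the ISRE. RefSeq windows (GRCm38.p6) were found for 8159 of the 11083 genes and 100 of the 169 lower genes. The core was written as GAAANNGAA and searched on both strands. It was present in 54 of the 100 lower genes (54.0%), 616 of 7816 genes within 0.5 of 0 (7.88%) and 2812 of all 32851 windows (8.56%). The share was 66.7% of 15 genes at or below -3, 54.5% of 33 genes between -3 and -2, 26 of 52 genes between -2 and -1, and 19.3% of 88 between -1 and -0.5. The STAT dimer motif GAS (TTCNNNGAA, which reads the same on both strands) was present in 17 of the 100 lower genes. This was against 8.15% of genes within 0.5 of 0 and 8.30% of all windows. The κB motif was present in 8 of the 100, against 6.32% and 4.51%. All 8 were among the 52 genes between -2 and -1. An ISRE core and a GAS motif can overlap only in a shared GAA or TTC. A match is only a description of the sequence. For 6 of the lowest genes, the stretch around the ISRE core is shown 5′ to 3′ in the direction of transcription (GRCm38.p6), with every match to the core in capitals, because these are the elements that the receptor's transcription complex is known to read.
Oas3 (chr5:120777696-120777758, minus strand): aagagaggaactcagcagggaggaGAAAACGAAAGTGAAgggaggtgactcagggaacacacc
Ifi44 (chr3:151749881-151749937, minus strand): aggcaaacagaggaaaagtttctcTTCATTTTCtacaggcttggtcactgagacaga
Oas1g (chr5:120887593-120887655, minus strand): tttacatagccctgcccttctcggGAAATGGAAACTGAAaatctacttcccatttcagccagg
Oas1a (chr5:120907507-120907569, minus strand): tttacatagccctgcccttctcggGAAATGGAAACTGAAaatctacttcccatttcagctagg
Irgm2 (chr11:58214889-58214945, plus strand): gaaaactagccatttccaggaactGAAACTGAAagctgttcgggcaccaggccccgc
Trim30a (chr7:104465196-104465252, minus strand): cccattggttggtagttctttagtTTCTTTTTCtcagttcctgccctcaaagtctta
In Oas3, Oas1g and Oas1a, 2 overlapping cores joined into 1 longer run, whereas Ifi44, Irgm2 and Trim30a had a single core. The cores of Ifi44 and Trim30a lay on the opposite strand. The matches nearest to the annotated start began between 3 bases (Ifi44) and 69 bases (Oas3) before it. The Oas1g and Oas1a stretches are nearly the same sequence, and the reads of such close copies may be divided between them by the counting.

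The receptor genes themselves were level across all groups. Ifnar1, the antibody's target, had means of 3.49 FPKM in control, 3.56 FPKM with 4HC, 3.42 FPKM with 4HC and antibody, and 3.07 FPKM with IFNβ, an antibody effect of -0.06. Ifnar2 (0.07), Jak1 (-0.12) and Tyk2 (-0.18) also lay near 0. The antibody acts on the receptor protein, so the transcript is no check of the block. The targets of the pathway gave a different picture: Stat2 and Irf9, which encode ISGF3 subunits, were at least 2-fold lower. Stat2 had 1.68 FPKM in control, 16.6 FPKM with 4HC and 2.52 FPKM when antibody was present, an effect of -2.68. Irf9, at 10.7 FPKM with 4HC and 1.75 FPKM with antibody, had an effect of -2.55. Usp18, the ISG15 protease that also shuts off IFNAR2 signalling, was lower by 3.93 on the log2 scale, from 47.4 to 3.03 FPKM. The 11 measured receptor and JAK-STAT genes that were not 2-fold lower lay between -0.29 (Socs1) and 0.08 (Ptpn2), and the median of the list was -0.12.

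The only interferon ligand gene that reached the minimum was Ifnb1. Its means were 0.0066 FPKM in control, 0.820 FPKM with 4HC, 0.701 FPKM with 4HC and antibody, and 0.012 FPKM with IFNβ. Under the antibody the ligand transcript thus stayed at 85.5% of its 4HC level, an effect of -0.20, while those of Stat2 and Irf9 did not. Among the interferon regulatory factors, Irf7 went from 30.9 FPKM with 4HC to 1.48 FPKM with antibody, and Irf5 from 2.10 to 0.644 FPKM (-1.56). Irf1, which is also a target of NF-κB, had 14.7 FPKM with 4HC, 9.78 FPKM with antibody, 13.5 FPKM with IFNβ and 4.32 FPKM in control (-0.59). Irf3, whose protein is activated without new transcription, was level at 10.6 and 11.8 FPKM (0.16), and Irf2 and Irf8 had effects of -0.35 and 0.28.

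**Figure D2:**
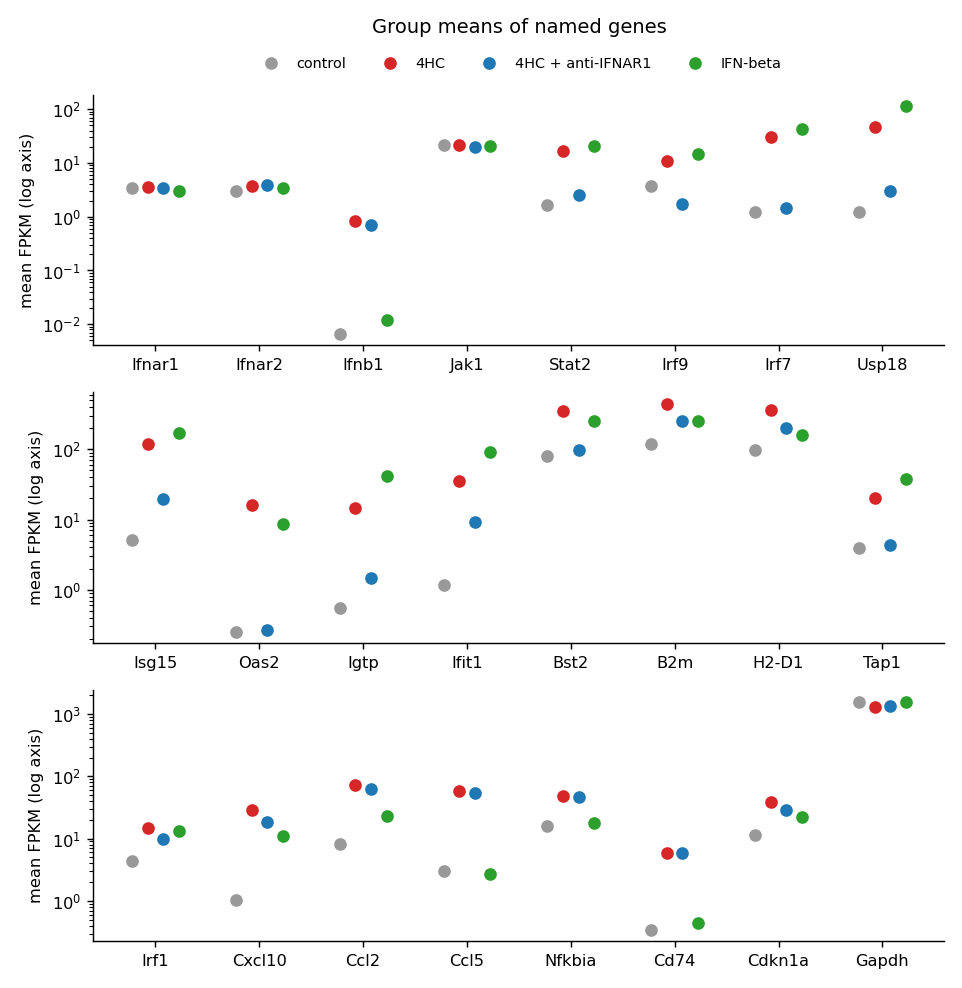
Authors' group means (FPKM, log axis) of 24 genes in control, 4HC, 4HC + anti-IFNAR1 and IFNβ cells; each point is 1 mean and has no error bar. Ifnar1 and Ifnar2 are level, Stat2, Irf7, Oas2 and Tap1 lie near control with the antibody, and Ifnb1, Ccl2, Ccl5, Nfkbia and Cd74 stay near their 4HC level.

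Many antiviral family genes are near 0 without an interferon signal. Such a gene reaches the minimum only if it was raised in the 4HC or the 4HC + anti-IFNAR1 group. If the antibody left it low, it entered only through the 4HC group, where it is high. Of the 176 genes that reached the minimum in the interferon lists, 27 did so only with 4HC and 147 did so in both groups, and 41 others in the table did not reach it. The counts are therefore also given for genes of at least 0.5 FPKM in control or IFNβ cells, a minimum set by groups that the antibody effect does not use and chosen after seeing the data. With that minimum 168 of 10677 genes (1.57%) were at least 2-fold lower, among them 113 of 176 genes of the interferon lists. In the list of the OAS pathway 8 of 9 genes were at least 2-fold lower with either minimum, with a median of -3.57, beside a median of -0.01 over all genes, but 5 of the 9 reached 0.5 FPKM only with 4HC. Oasl2 had 1.10 FPKM in control, 38.7 FPKM with 4HC, 3.17 FPKM with antibody and 49.7 FPKM with IFNβ. Of 12 immunity-related GTPases in the table, which attack the vacuoles of intracellular parasites, 7 reached the minimum, 4 of them (Iigp1, Ifi47, Gm12250 and Gm4951) only with 4HC. These 7 lay between -2.46 (Irgm1) and -3.64 (Irgm2), and with the minimum in control or IFNβ 9 of 9 were at least 2-fold lower. Of the genes below the minimum, 9930111J21Rik1 (-0.89), 9930111J21Rik2 (-0.22) and Gm5431 (-0.94) were within 2-fold on this scale. Their 4HC means were 0.121, 0.0167 and 0.109 FPKM, near or under the pseudocount, which shrinks these effects. Of 11 guanylate-binding proteins 8 reached the minimum, 2 of them only with 4HC, and ranged from -1.56 (Gbp5) to -3.30 (Gbp3), and 7 of 7 were at least 2-fold lower with the other minimum. Igtp, one of these GTPases, had 14.5 FPKM with 4HC and 1.45 FPKM with antibody. The 6 genes of ISG15 conjugation were at least 2-fold lower, 1 of them having reached the minimum only with 4HC. Isg15, the ubiquitin-like modifier, had 5.11 FPKM in control, 118 FPKM with 4HC, 19.4 FPKM with antibody and 172 FPKM with IFNβ (-2.59), and its activating enzyme Uba7 had an effect of -2.73. The Ifit genes, whose products bind foreign RNA 5′ ends, gave 5 of 5 (median -2.17), 3 of which reached the minimum in both groups, and 6 of 6 with the minimum in control or IFNβ. Mx1, Mx2, Cmpk2 and Rsad2, at or above the minimum in both groups, gave 4 of 4 (median -2.67). Rsad2 (viperin) was the least affected of these 4: its mean was 35.4 FPKM with 4HC and still 12.7 FPKM with antibody, against 1.04 FPKM in control. Ifit1, at 34.9, 9.13 and 1.18 FPKM in the same order, and Isg15 likewise remained several-fold above control. Genes within several of these families are close copies, so that single values among the Oas1, Gbp, Trim30 and Ifi200 genes are less certain than the families' ranges.

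The 7 genes of the p200 family that reached the minimum (DNA-binding proteins such as Ifi204 and Mndal) were at least 2-fold lower, with a median of -1.86, though 3 reached it only with 4HC, and 6 of 8 PARP and Dtx3l genes were, with a median of -1.93. Parp14, an ADP-ribosyltransferase, had the lowest effect of the latter (-2.85), while Parp3 (-0.33) and Parp8 (-0.19) were within 2-fold. Schlafen genes were mixed: Slfn2 had 11.7 FPKM with 4HC and 1.38 FPKM with antibody, and the effects of Slfn8, Slfn9 and Slfn10-ps were -2.41, -1.56 and -1.11, whereas Slfn3 (-0.94), Slfn5 (-0.41) and Slfn4 (-0.30) were within 2-fold. Of the 40 further type I ISGs, 26 were at least 2-fold lower (median -1.54), and of the 31 at or above the minimum in both groups 18 were. None of the 15 interferon lists had a gene at least 2-fold higher. At a share of 0.460% over all genes, and 2 of 10666 outside small RNA genes, this does not set them apart. Of the 176 genes in these lists that reached the minimum, 110 were at least 2-fold lower and 10 had an effect above 0, the highest being Ifitm6 at 0.39, a gene near 1 FPKM in both groups.

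Sensors of nucleic acids and their adaptors were divided. The RNA helicases Dhx58 (LGP2), Ddx58 (RIG-I) and Ifih1 (MDA5) had effects of -3.23, -2.63 and -2.18, Zbp1 had -3.13, and the RNA-dependent kinase Eif2ak2 (PKR) had -2.14. Ddx58 had 3.82 FPKM in control, 19.4 FPKM with 4HC, 3.05 FPKM with antibody and 33.3 FPKM with IFNβ. By contrast, the cytosolic DNA sensor cGAS (Mb21d1), the adaptors STING (Tmem173) and MAVS, and the kinase Tbk1 had effects of -0.11, -0.13, -0.05 and -0.06. In all, 8 of 17 sensors and adaptors were at least 2-fold lower and all 17 were below 0. Of 20 restriction factors and PML body genes, 9 were at least 2-fold lower. Bst2 (tetherin) had the highest 4HC mean of all lower genes, at 349 FPKM, with 96.6 FPKM under the antibody, 79.9 FPKM in control and 251 FPKM with IFNβ (-1.85). Ifitm3, which blocks viral entry, was 308 FPKM with 4HC and 195 FPKM with antibody (-0.66), while its neighbour Ifitm2 was 73.6 and 76.3 FPKM (0.05).

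Antigen presentation genes lay closer to 0 than the OAS, Ifit and GTPase genes. The 20 genes of MHC class I and antigen processing that reached the minimum, out of 30, had effects below 0, from -0.41 (Psme2) to -2.26 (Psmb9), with a median of -0.90, and 9 were at least 2-fold lower. The peptide transporter Tap1 had 20.3 FPKM with 4HC, 4.38 FPKM with antibody and 3.96 FPKM in control (-2.19). The heavy chain H2-D1 and the light chain B2m kept a larger part: H2-D1 had 98.4 FPKM in control, 363 FPKM with 4HC, 199 FPKM with antibody and 160 FPKM with IFNβ (-0.87). B2m had 117, 446, 257 and 257 FPKM in these groups (-0.80). With the antibody H2-D1 thus had a higher mean than with IFNβ, and the means of B2m were the same after rounding. The antibody group was collected at 72 h and the IFNβ group, by the header, at 6 h. Class I heavy chains (H2-K1, H2-D1, H2-L) are close copies of each other, and their separate means are less certain than the shared direction. The 3 MHC class II genes that reached the minimum, out of 11, gave no such difference. Cd74, the invariant chain, had 0.348 FPKM in control, 5.85 FPKM with 4HC, 5.92 FPKM with antibody and 0.440 FPKM with IFNβ (0.02), and H2-DMa and H2-DMb1 had effects of 0.15 and -0.10.

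**Figure D3:**
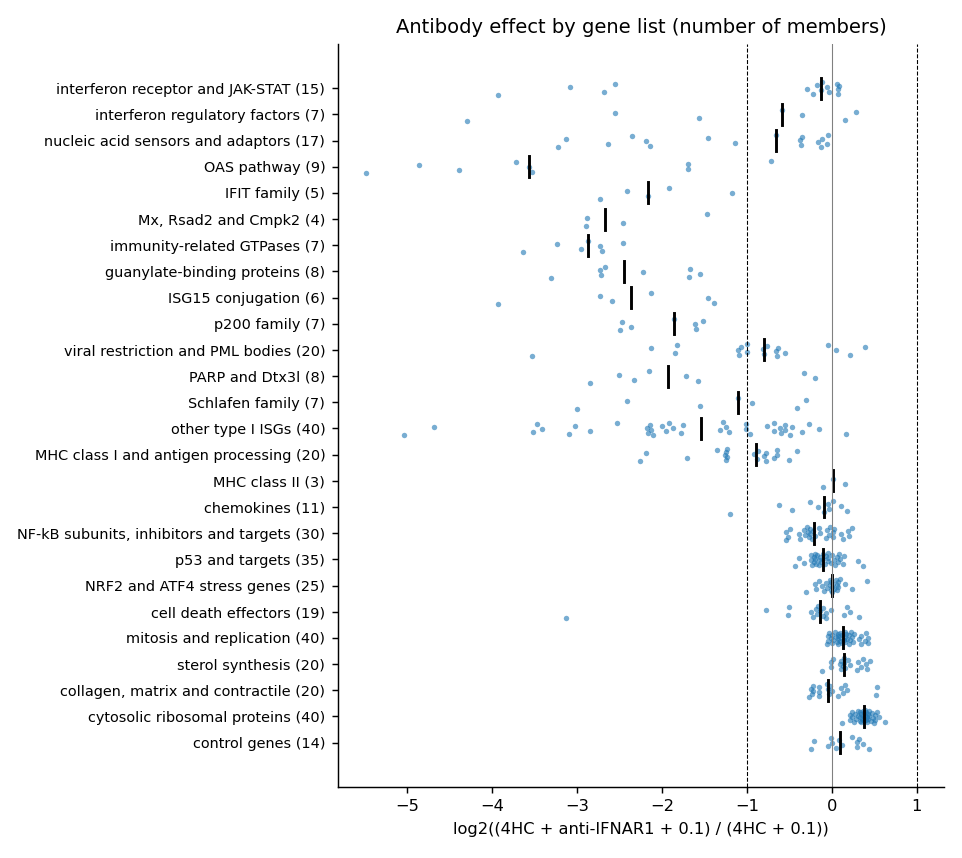
Each point is the antibody effect of 1 gene (log2 scale), with a row per gene list and the number of measured genes in brackets; vertical bars are list medians and dashed lines mark a 2-fold difference. OAS genes reach the lowest values (median -3.57). NF-κB, p53, stress and cell cycle genes stay within 2-fold, as do most genes (1.52% of all 11083 were at least 2-fold lower and 0.460% higher).

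Of the 32 chemokine genes listed, 11 reached the minimum. Cxcl9 was at least 2-fold lower, and the other 10 were within 2-fold of their 4HC level. Most genes were too, with 1.52% lower and 0.460% higher over all genes. Ccl5, a chemokine that attracts T cells, had 3.04 FPKM in control, 58.0 FPKM with 4HC, 54.3 FPKM with antibody and 2.71 FPKM with IFNβ (-0.09). The monocyte chemokine genes Ccl2 (71.5 and 63.6 FPKM with 4HC and 4HC with antibody) and Ccl7 (36.6 and 35.3 FPKM) had effects of -0.17 and -0.05. Cxcl10 lay in between, with 1.04 FPKM in control, 28.6 FPKM with 4HC, 18.5 FPKM with antibody and 11.2 FPKM with IFNβ (-0.63). Cxcl9 had 0.648 FPKM with 4HC and 0.227 FPKM with antibody (-1.19), near the minimum level, and Cxcl11, below the minimum, had 0.362 FPKM with 4HC and 0.0645 FPKM with antibody (-1.49). Of 30 NF-κB subunits, inhibitors and targets, none was at least 2-fold lower or higher, which at shares of 1.52% and 0.460% over all genes does not set the list apart from them. Their median was -0.21, and they ranged from -0.54 (Nfkbie and Tnfaip3, inhibitors of the pathway) to 0.24 (Lcn2). Nfkbia, the inhibitor IκBα, was 47.5 FPKM with 4HC and 46.8 FPKM with antibody, against 16.2 FPKM in control (-0.02).

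Genes of the drug response outside the interferon pathway were, like most genes, within 2-fold. The 35 p53 genes lay between -0.44 (Sesn2) and 0.36 (Sesn1). Cdkn1a, the cell cycle inhibitor p21, had 11.5 FPKM in control, 38.2 FPKM with 4HC, 29.2 FPKM with antibody and 22.2 FPKM with IFNβ (-0.39). All 25 NRF2 and ATF4 stress genes lay between -0.31 (Slc7a11) and 0.41 (Prdx1), with a median of 0.00. Among 19 cell death effectors, Zbp1 was the only gene at least 2-fold lower. The necroptosis effector Mlkl had 27.1 FPKM with 4HC and 19.0 FPKM with antibody (-0.51). The 40 mitosis and replication genes had a median of 0.13, the 20 sterol synthesis genes of 0.15, the 20 matrix and contractile genes of -0.04 and 14 commonly used control genes of 0.10. When both groups were scaled to the same summed FPKM, the median over all genes moved from -0.01 to -0.14, and the medians of mitosis, control and MHC class II genes changed sign (-0.01, -0.04 and -0.12), so no direction is given for these.

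Small positive effects followed transcript length. A length, taken from the longest annotated transcript (GENCODE vM21), was found for 10630 genes (95.9%). Outside the interferon lists, 417 genes with transcripts of at least 500 and under 1000 bases had a median effect of 0.34, and 90.4% of them were above 0. The median was 0.16 for 1739 genes from 1000 to under 2000 bases, 0.01 for 4131 genes from 2000 to under 4000 bases, -0.10 for 3179 genes from 4000 to under 8000 bases and -0.16 for 536 genes of 8000 bases or more. IFNβ against control, from other libraries, gave 0.12 and -0.14 in the classes of 500 to under 1000 bases and of 8000 bases or more. In the same classes 4HC against control gave -0.02 and -0.04, and 4HC with antibody against control gave 0.33 and -0.19. These comparisons share groups with the antibody effect, and the values are a description. The 40 cytosolic ribosomal protein genes, which have short transcripts, were all above 0, from 0.12 to 0.63 with a median of 0.38, and the median was 0.18 when effects were centred within length classes. Among the genes at the upper end, Crip1, whose longest transcript has 1809 bases, had 24.1 FPKM with 4HC and 47.6 FPKM with antibody (0.98), and shorter ones were Rpl37a with 268 and 478 FPKM (0.83) and Uqcrh, a subunit of respiratory complex III, with 35.0 and 62.1 FPKM (0.83). S100a4, a calcium-binding protein used as a mesenchymal marker, had 345 FPKM in control, 175 FPKM with 4HC, 299 FPKM with antibody and 371 FPKM with IFNβ (0.77). Summed over all genes, FPKM was 10.2% higher with antibody than with 4HC. The part of transcript length in any single difference was not tested.

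**Figure D4:**
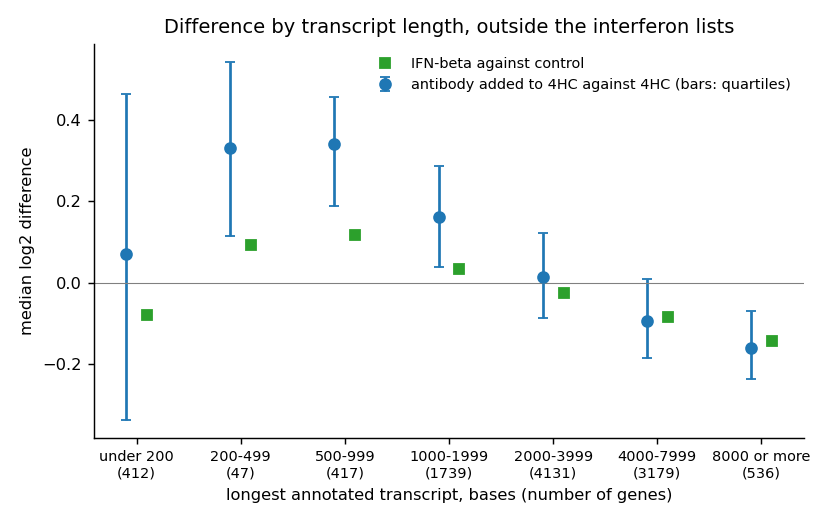
Median log2 difference by length of the longest annotated transcript, for genes outside the interferon lists (number of genes in brackets): antibody added to 4HC against 4HC (circles, bars from the lower to the upper quartile) and IFNβ against control (squares). Both decline from the class of 500 to under 1000 bases (0.34 and 0.12) to the longest class (-0.16 and -0.14).

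Genes just inside the 2-fold rule were Daxx (17.6 FPKM with 4HC and 8.72 FPKM with antibody), Rnf31 (7.45 and 3.67 FPKM) and Shisa5 (30.9 and 15.3 FPKM), and those just outside it were Trafd1 (-0.97), Nlgn2 (-0.97) and Tor1aip1 (-0.96). At the upper end Rmrp (1.03), Cox7a1 (1.05) and Rpph1 (1.31) were inside, and Crip1 (0.98), Tmem212 (0.94) and Snhg9 (0.86) outside. Rmrp, Rpph1 and the microRNA genes are transcripts that the poly(A) selection used for these libraries is not designed to recover, and most were near the minimum. At 0.5 to 1 FPKM in the higher group, 31 genes were at least 2-fold lower and 23 higher, whereas at 10 to 50 FPKM the counts were 60 and 0.

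The comparison of IFNβ with control uses 6 libraries that the antibody effect does not use. Among genes raised by IFNβ, the antibody effects were lower where the response was larger. By the header, control cells were collected at 72 h and IFNβ cells at 6 h. The response to IFNβ therefore cannot be told apart from a difference in time of collection. At least 2-fold higher levels with IFNβ were found for 230 of the 11083 genes (2.08%), and 139 of these 230 (60.4%) were at least 2-fold lower with the antibody. Conversely, 139 of the 169 lower genes (82.2%) were at least 2-fold higher with IFNβ. The median antibody effect was 0.00 for 10408 genes with an IFNβ response within 0.5 of 0, -0.27 for 208 genes with a response of 0.5 to 1, -0.60 for 111 of 1 to 2, and -1.29 for 38 of 2 to 3. It was -2.22 for 30 genes of 3 to 4 and -2.85 for 51 genes of 4 or more. The share of at least 2-fold lower genes in these classes was 0.115%, 2.88%, 28.8%, 71.1%, 96.7% and 100%. The order did not extend to genes with lower levels under IFNβ. At a response below -1, 9 of 44 genes (20.5%) were at least 2-fold lower with the antibody and 12 higher, with a median of -0.09. From -1 to -0.5, 3 of 193 (1.55%) were lower and 7 higher, with a median of 0.03. The lower genes of these classes were all small RNA genes. In the classes of 2 to 3, 3 to 4, and 4 or more, 10, 6 and 18 genes had reached the minimum only with 4HC. With the minimum in control or IFNβ, on 46, 33 and 51 genes, the shares in these classes were 69.6%, 93.9% and 100%. Among the 230 genes Pearson's r between both log2 values was -0.74 and Spearman's rho was -0.78, over all 11083 genes r was -0.54 and rho 0.19. These are descriptions across genes, which are not independent replicates, and both contrasts moved with transcript length, as given above.

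**Figure D5:**
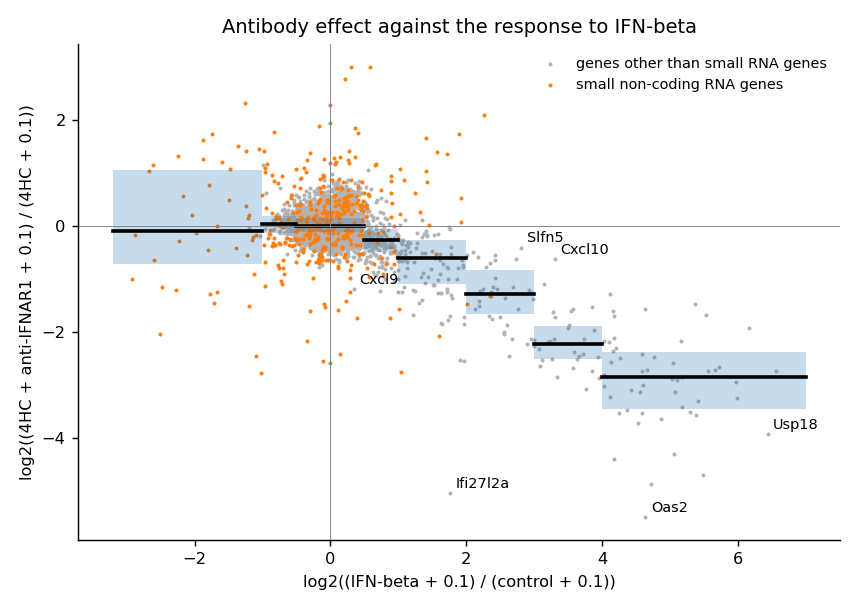
Each point is a gene, with its response to IFNβ (log2 scale, IFNβ against control) against its antibody effect; black bars are medians and shaded boxes quartiles within classes of the IFNβ response. Medians descend from 0.00 at responses within 0.5 of 0 to -2.85 at responses of 4 or more, and small non-coding RNA genes (orange) scatter around 0.

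Genes that departed from this order were found on both sides. At an IFNβ response of at least 4-fold, 107 of 119 genes were at least 2-fold lower and 12 were not. Effects nearest 0 among them were those of Slfn5 (-0.41), Apol7a (-0.50), Cyp26a1 (-0.54), Sp140 (-0.56), Tmem140 (-0.58), Cxcl10 (-0.63), the chemerin receptor-like gene Ccrl2 (-0.63) and Tmem229b (-0.65). Cxcl10 and Ccrl2 were higher with 4HC (28.6 and 2.01 FPKM) than with IFNβ (11.2 and 1.07 FPKM), and stayed above the IFNβ level with the antibody (18.5 and 1.26 FPKM). As above, these levels are from different times of collection. Slfn5 had 3.78 FPKM with 4HC, 2.81 FPKM with antibody and 7.45 FPKM with IFNβ. On the other side, Ifi27l2a responded to IFNβ with 1.76 on the log2 scale (4.54 against 1.27 FPKM) but had an antibody effect of -5.04. Of the 12 lower genes with an IFNβ response within 0.5 of 0, 11 were small non-coding RNA genes and the other was Cxcl9. Cxcl9 had 0.0076 FPKM in control and 0.0369 FPKM with IFNβ, both under the pseudocount, which shrinks its response to 0.35. Among named genes with an IFNβ response within 0.5 of 0, microRNA and snoRNA genes set aside, the lowest effects were those of the Cajal body RNA gene Scarna3a (-1.48), Cxcl9 (-1.19), Krt80 (-0.73), Heatr9 (-0.69), Plekhn1 (-0.65), Gem (-0.65), H2-Q4 (-0.64) and Plb1 (-0.64). The promoters of Slfn5, Tmem140 and Cxcl10 also hold an ISRE core, and are shown with ISRE cores and κB motifs in capitals because these genes were among the least affected of the IFNβ-responsive genes.
Slfn5 (chr11:82951923-82952002, plus strand): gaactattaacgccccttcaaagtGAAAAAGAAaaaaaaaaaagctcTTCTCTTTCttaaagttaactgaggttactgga
Tmem140 (chr6:34863059-34863115, plus strand): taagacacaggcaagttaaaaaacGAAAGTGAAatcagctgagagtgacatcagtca
Cxcl10 (chr5:92348959-92349126, minus strand): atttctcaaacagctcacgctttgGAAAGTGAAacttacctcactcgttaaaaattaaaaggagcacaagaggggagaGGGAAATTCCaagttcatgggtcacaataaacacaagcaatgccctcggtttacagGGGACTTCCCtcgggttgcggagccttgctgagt
The Cxcl10 stretch has 1 ISRE core, the capitals nearest its 5′ end, and 2 κB motifs, whereas Slfn5, the least affected of these genes, has 2 ISRE cores and Tmem140 has 1, both with no κB motif in the window. Among 23 NF-κB genes with a promoter window, 9 (39.1%) held the κB motif, against 6.32% of genes within 0.5 of 0 and 4.51% of all windows.

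Levels with the antibody were set beside those of untreated cells for the 169 lower genes. As both comparisons use the antibody libraries, this is a description. These ratios were taken without the pseudocount, and a gene at 0 in control (2 of the 169) counted as above it if detected with antibody. Means within 1.5-fold of control were found for 61 genes, means more than 1.5-fold above it for 87 (51.5%) and more than 1.5-fold below it for 21 (12.4%). The genes above control include some near 0 in both groups, such as Gbp10 with 0.0038 FPKM in control and 0.109 FPKM with antibody. Among all 11083 genes, 11.7% were more than 1.5-fold above control and 3.67% below it. Without small non-coding RNA genes the counts were 50, 83 and 7 of 140. The 7 genes below were Ifi27l2a, Irf9, Lgals9, Lgals3bp, Mov10, Adar and Eif2ak2. Irf9 had 3.68 FPKM in control, 1.75 FPKM with 4HC and antibody and 14.7 FPKM with IFNβ, and Lgals3bp, a secreted galectin-binding glycoprotein, had 17.7, 10.8 and 67.0 FPKM.

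Many of the lower genes were neighbours on the chromosomes. Among 140 lower genes outside small RNAs, 76 (54.3%) had another lower gene starting within 100 kb (mm9), in 23 runs, whereas 244 of the 10526 genes that were not 2-fold lower (2.32%) had a lower gene this near. The run with the most genes was the Oas run on chromosome 5 (121180341 to 121357534), in which Oas2, Oas3, Oas1c, Oas1b, Oas1g and Oas1a were all lower and no other measured gene lay between them. Similar runs, also with no measured gene between that was not 2-fold lower, were 5 Ifit genes on chromosome 19, Trim34a, Trim12a, Trim12c, Trim30a and Trim30d on chromosome 7, and Ly6e, Ly6a, Ly6c1 and Ly6c2 on chromosome 15. In the run of Daxx, Tapbp, H2-K2 and H2-K1 on chromosome 17, 7 of 11 measured genes were not 2-fold lower, among them Rps18 and Vps52. Members of most of these runs are related in sequence, as above.

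Of the 30 lower genes outside both the interferon lists and the small RNA genes, 26 were at least 2-fold higher with IFNβ, against 2.08% of all genes. As above, time of collection is part of that difference. These 30 genes were picked out after their values were seen. Ly6e, a surface protein, had 53.8 FPKM in control, 145 FPKM with 4HC, 55.3 FPKM with antibody and 138 FPKM with IFNβ (-1.39), and Ly6a (Sca-1) had 20.1, 75.0, 29.2 and 69.5 FPKM (-1.36). Apol9a and Apol9b, apolipoprotein L genes, had effects of -2.53 and -2.51, and the complement genes C4b and C2 of -2.46 and -1.25. The 4 that were not were Cxcl9, Agrn (-1.22), Mov10 (-1.04) and Rnf31.

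Apart from the mesenchymal list, of which 7 of 10 genes reached the minimum, the marker lists gave few measured genes. Vim, a mesenchymal filament gene, had 785, 752, 849 and 835 FPKM in control, 4HC, 4HC with antibody and IFNβ, and of 14 epithelial markers only Krt8 and Krt14 reached the minimum. None of 4 B cell markers reached it. Of 11 T and NK cell markers in the table Lck alone did, at 0.944 FPKM with 4HC and 0.620 FPKM with antibody. Of 13 myeloid markers in the table Cd68, S100a8 and Lyz2 reached it, with effects of -0.06, 0.45 and 0.47. Pecam1 was the only one of 6 endothelial markers (0.13). The keratin gene Krt8, at 46.5 and 51.9 FPKM in the 4HC groups without and with antibody, is the main epithelial marker in these cells, while Epcam and Cdh1 were below 0.5 FPKM in both.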

How the data were processed

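RNA-seq libraries from cultured E0771 cells (3 per group, poly(A)-selected RNA, directional kit) were processed by the authors with TopHat2, mm9, featureCounts and edgeR per the submitters' processing notes, without versions. The deposited values are FPKM, which the authors gave as 1 mean per group. The table also holds 12 columns of the authors' ratios, fold changes and p-values for 4 comparisons, which were not used, and from the means alone no test was run. Whether strand was used in counting, and how reads of close copies were assigned, is not given in the sources used here.

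Effects were computed with Python 3 scripts (pandas 2.3.3, numpy 2.4.6) as log2 ratios of means with a pseudocount of 0.1 FPKM over genes of at least 0.5 FPKM in either group, with a 2-fold rule and no test, and the scripts were tested on simulated data. Upper-case symbols were respelled with RefSeq tables, and 27 names that a spreadsheet had turned into dates were left unnamed. The genes and lists were chosen with earlier results of these data known. Named genes were the receptor and JAK-STAT list, the 20 lowest and 10 highest effects at 1 FPKM or more (predicted, clone and small RNA names passed over), the most abundant and most changed of each list, those nearest the 2-fold rule, and those departing most from the IFNβ response. Other genes named in the text were picked after their values were seen. Alternatives covered the pseudocount, minimum, fold, scaling, symbol type and motif. After seeing the data, centring by transcript length, leaving out short transcripts, scaling for the level beside untreated cells, and a minimum of 0.5 FPKM in control or IFNβ were added. Some items are not reported here.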

Additional observations from a re-analysis of the deposited data

How the results depend on the processing

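No paired analysis was possible because the table holds 1 mean per group and no value per library, and for the same reason no replicate could be left out. The 4HC mean repeated elsewhere in the table was not used, so that alternative was not run. Small differences cannot be told from the spread between cultures, for which the table gives no value, nor does it give depth. The count of at least 2-fold lower genes (169) was between 131 and 185 under pseudocounts of 0.01 and 0.5 FPKM, a minimum of 1 FPKM, both scalings, protein-coding style symbols, the length settings, and a minimum in control or IFNβ in place of the 4HC groups (168). It was 104 with a pseudocount of 1 FPKM, 88 with a minimum of 5 FPKM, 110 with 0.5 FPKM in both groups, 276 at 1.5-fold and 106 at 3-fold, and 252 with no minimum. The count of higher genes (51) depended far more on low levels. It was 21 and 3 with pseudocounts of 0.5 and 1 FPKM, 121 with no minimum, 28 and 3 with minima of 1 and 5 FPKM, 19 with 0.5 FPKM in both groups, 188 at 1.5-fold and 15 at 3-fold. It was 5 among protein-coding style symbols and 2 without small RNA genes and transcripts under 200 bases, a setting chosen after seeing the data.

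A pseudocount of 1 FPKM moved the list medians of OAS genes to -2.36, Ifit genes to -1.19, immunity-related GTPases to -1.65 (-2.09 at 0.5 FPKM), guanylate-binding proteins to -1.60 and ISG15 conjugation to -1.76. It left 4 restriction genes at least 2-fold lower in place of 9, and no chemokine (0, also at 0.5 FPKM and with the minimum in control or IFNβ). Of 223 recomputed list medians 6 moved by over 1.5-fold, and of 1320 recomputed effects of 221 named genes 66 did, with no called value reversed. Centring by length left 3 Ifit and 4 p200 genes at least 2-fold lower, which were all those with a known length. With an IFNβ response of at least 1.5-fold, 379 genes qualified, with a median effect of -0.65 and 38.3% lower, and at least 4-fold gave 119 genes with -2.17. A minimum of 5 FPKM left 119 IFNβ-raised genes, 83 of them lower, and 7 and 40 lower genes below and above their untreated level. One further A in the ISRE core gave 47.0% of lower genes, 3.08% of those within 0.5 of 0 and 3.44% of all windows.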
